A study of Caenorhabditis elegans with 2 samples.

Results

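The synthetic multivulva (synMuv) genes of Caenorhabditis elegans are chromatin and transcription regulators, and 10 of them outside the DRM complex are described here for binding of DPL-1. They were taken by name from the WBcel235 annotation, where all 10 were found among 19973 protein-coding genes of the 6 nuclear chromosomes. The listed genes are lin-15B, lin-36, lin-61, lin-13, hpl-2, met-2, lin-65 and tam-1, of the class B type, and lin-56 and lin-8, of class A. The data are chromatin immunoprecipitation sequencing peak lists of tagged DPL-1 from whole L4 larvae, males and hermaphrodites together, in 1 group with 2 biological replicates. Strain OP105 carries the allele unc119(ed3) and the integrated transgene wgIs105, which holds dpl-1 fused to TY1, EGFP and FLAG tags together with unc119. Both replicates are of this strain, no untagged strain was analysed here, and a peak from whole animals does not say in which cells DPL-1 was bound.

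DPL-1 belongs to the DP family, whose members bind DNA together with E2F proteins. It is a subunit of DRM, the worm counterpart of mammalian DREAM, which represses cell cycle and germline genes in the soma. Animals that lose a class A and a class B gene together form extra vulvae, because the EGF gene lin-3 is expressed where it should be silent. Class B holds DRM itself and several groups of chromatin proteins. LIN-15B and LIN-36 have THAP domains, a kind of DNA-binding zinc finger. LIN-61 has MBT repeats that bind methylated histone H3 lysine 9, LIN-13 is a zinc finger protein, HPL-2 is a heterochromatin protein of the HP1 family, MET-2 is the SETDB1-type methyltransferase of lysine 9, and LIN-65 is its partner. TAM-1 is a RING finger protein, and LIN-56 and LIN-8 are nuclear proteins of class A.

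A gene was called where a peak summit fell in its window, which reached 1000 bp upstream and 200 bp downstream of every annotated transcript start. The irreproducible discovery rate (IDR) list, which keeps peaks that recur between replicates, holds 3369 peaks. The relaxed lists of replicate 1, replicate 2 and the pooled replicates hold 30000 peaks each, most of them weak. Each peak has a signal, a value set by the authors whose scale no source used here gives, so values are set beside others of their own list, and a ratio between replicates only beside the same ratio over all matched peaks. The IDR signals ran from 46.4 to 5205 with a median of 99.3. Read depth is unknown, and with 1 group there was no comparison between conditions and no test.

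IDR summits fell in the windows of 4 of the 10 genes, which is 40% with an exact 95% interval of 12.2 to 73.8% that covers counting error only. By the same rule 3266 of 19973 protein-coding genes were called (16.4%), which lies inside that interval. The 10 genes were chosen by name and are not a random draw, so the interval is no test of the list. The called genes were lin-36, lin-61, lin-15B and lin-13, all of class B, and their median signal was 172, against 141 over all called genes. The 4 peaks lay above the IDR median of 99.3, and 2117 of the 3266 called genes had a peak at or above it. Beside the median of 141 over all called genes, lin-36 and lin-61 lay above and lin-15B and lin-13 below. Both replicates listed a relaxed summit no more than 100 bp from each of the 4 summits, as they did for 91.3% of all IDR peaks. Genes with an IDR summit matched in this way made up 15.6% of all genes. The 6 genes without an IDR summit were hpl-2, met-2, lin-65, tam-1, lin-56 and lin-8.

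**Figure D1:**
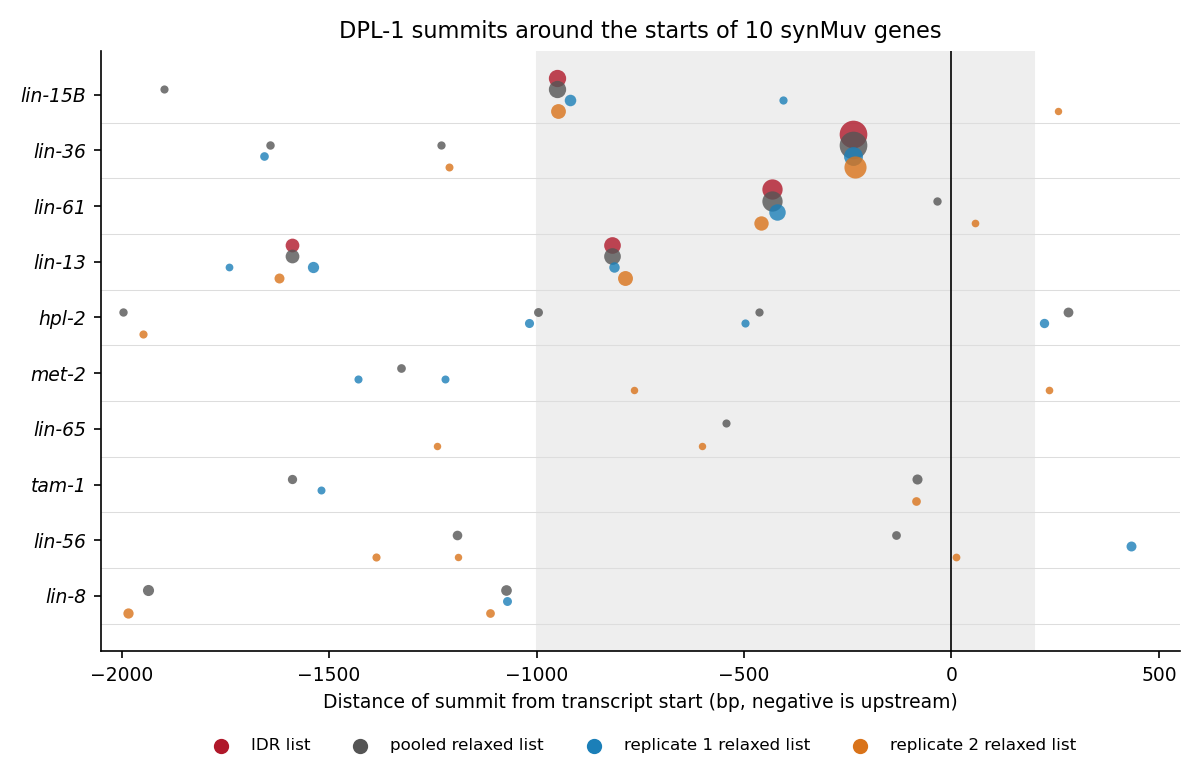
Positions of DPL-1 summits from 2000 bp upstream to 500 bp downstream of the transcript starts of the 10 genes, by list, with the area of a point growing with the authors' signal and the shaded band marking the window. All 4 lists have a point at nearly the same place for lin-36, lin-61, lin-15B and lin-13, at 237, 432, 950 and 819 bp upstream. The other 6 genes have no point of the IDR list, and within the window none of them has points of both replicates. Outside the window of lin-8, points of the pooled list and both replicates nearly coincide about 1073 bp upstream.

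The THAP domain gene lin-36 (WBGene00003021, III:8016648-8020873, minus strand) had the strongest peak of the 10. Its IDR peak at III:8020980-8021231 had a signal of 436 and ranked 383 of 3369. The signal was 173 in replicate 1, where the peak ranked 507, and 256 in replicate 2, where it ranked 314. Both replicates place it in the strong end of their lists, and their summits lay 4 bp apart. The summit, at III:8021110, was 237 bp upstream of the single annotated start of lin-36, outside every annotated gene, and 3 bp upstream of the start of the noncoding RNA F44B9.11, which is also on the minus strand. No protein-coding gene shared it, and the next one upstream, F44B9.2 on the plus strand, began 1590 bp from the start of lin-36.

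The MBT repeat gene lin-61 (WBGene00003041, I:7248827-7251282, minus strand) had the second peak, at I:7251632-7251813. Its signal was 207 in the IDR list, rank 830, with 121 in replicate 1 and 83.6 in replicate 2, and the replicate summits lay 40 bp apart. It ranked 695 in replicate 1 and 1100 in replicate 2, and alone of the 4 it stood higher in the list of replicate 1. The summit lay in the space of 659 bp between divergent genes, 432 bp upstream of the outer start of lin-61 and 227 bp upstream of the start of bub-1, a kinase of the spindle checkpoint on the plus strand. It was nearer to bub-1, so lin-61 was lost when each summit was given to its nearest protein-coding start only. That left 3 of the 10 genes against 11.7% of all genes. The noncoding RNA F44B9.11, whose start is nearer to the lin-36 summit than that of lin-36, did not compete in this setting. At the second annotated start of lin-61, which lies inside the gene, the pooled list held only a weak intronic summit of 11.1.

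The lin-15 locus codes for LIN-15B and, just downstream on the same strand, for the class A protein LIN-15A. The gene lin-15B (WBGene00023497, X:15726123-15732025, plus strand) had an IDR peak at X:15725104-15725253 with a signal of 138 and rank 1215. The signal was 43.3 in replicate 1 and 91.0 in replicate 2, with ranks of 1838 and 1008 and summits 29 bp apart. The peak was thus present in both, and ranked higher in replicate 2. Its summit was intergenic, 950 bp upstream of the nearest start, and in the window of no other gene. The start of lin-15A lay 6795 bp from this summit, and the window of lin-15A held no summit of the IDR or pooled list.

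The zinc finger gene lin-13 (WBGene00003002, III:7700338-7709491, minus strand) had an IDR peak at III:7710216-7710368 with a signal of 125 and rank 1343. Replicate 1 gave 30.7 at rank 2648 and replicate 2 gave 92.7 at rank 992, a ratio of 3.03 between replicates. Over the 3076 IDR peaks with a summit within 100 bp in both replicates, the median of this ratio was 1.14 and 96.8% had a lower ratio than lin-13. The summit lay 819 bp upstream of lin-13 and in the window of no other gene. A second, weaker IDR summit lay farther out, 1589 bp upstream, with a signal of 73.8 and with 39.9 and 25.6 at the nearest summits of replicates 1 and 2. In replicate 1 this outer summit was the higher of the pair, and in replicate 2 the inner one was.

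**Figure D2:**
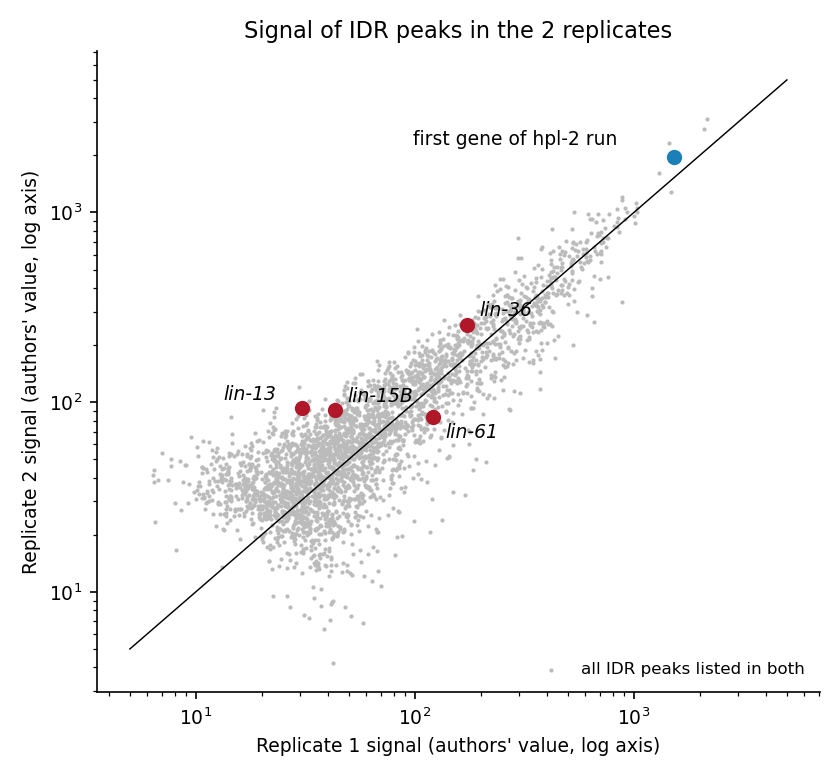
Signal in replicate 2 against replicate 1 for the 3076 IDR peaks listed in both (grey), on log axes with the line of equal values, with the 4 called genes in red and the peak before the first gene of the hpl-2 run in blue. The points of lin-36, lin-15B and lin-13 lie above the line and that of lin-61 lies below it.

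The replicates gave the 4 peaks the same first place and a different order after it. In both, lin-36 had the highest signal of the 4. In replicate 1 lin-61 followed with 121, above lin-15B with 43.3 and lin-13 with 30.7. In replicate 2 the order of these 3 was reversed, and their values lay close together, from 83.6 to 92.7. The ratio of replicate 2 to replicate 1 was 2.10 at lin-15B, 1.48 at lin-36 and 0.691 at lin-61, where the quartiles over all such peaks were 0.835 and 1.54. With 2 replicates that order these 3 genes in opposite ways, no order among them is given here, and their difference was not tested.

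The summits of lin-15B and lin-13 lay farther from the annotated start than those of most called genes. Over all 3266 called genes the median summit was 222 bp upstream, and 565 genes (17.3% of them, 2.83% of all genes) had no summit nearer than 500 bp upstream. Of the 4 called genes, lin-15B and lin-13 were of this kind. With 500 bp upstream allowed, lin-36 and lin-61 were left, 2 of 10 against 13.5% of all genes. With 200 bp upstream and 100 bp downstream allowed, 0 of the 10 were called, against 7.61% of all genes. With 2000 bp upstream the count stayed at 4 of 10, against 20.2% of all genes. It was also 4 of 10 with the outermost start of each gene (15.5% of all genes), with any base of the peak in the window (17.1%) and with the stronger peaks, at or above the IDR median (10.6%). Among the strongest 3369 peaks of replicate 2 or of replicate 1 taken alone it was again 4 of 10, against 16.1% and 15.8% of all genes.

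The sequence under the summits of the called genes is shown for lin-15B, lin-36 and lin-13, as 101 bases of WBcel235 (RefSeq) centred on the summit and written along the strand of the gene, to set the E2F letters at lin-15B beside summits that lack them. The stretches are X:15725123-15725223 (plus strand) for lin-15B, III:8021060-8021160 (minus strand) for lin-36, which overlaps an exon of the noncoding RNA F44B9.11, and III:7710260-7710360 (minus strand) for lin-13. Capitals mark matches, on either strand, to an E2F site, spelled TTCCCGC in its usual form or else TTGGCGC or, as a further form, TTCGCGC or, lastly, TTGCCGC. They also mark the CHR element bound by LIN-54, spelled TTTGAA or in its other form TTCGAA, and the repeat GAGAG.
lin-15B: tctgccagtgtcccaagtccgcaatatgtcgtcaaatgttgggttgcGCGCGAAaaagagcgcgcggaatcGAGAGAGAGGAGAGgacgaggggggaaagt
lin-36: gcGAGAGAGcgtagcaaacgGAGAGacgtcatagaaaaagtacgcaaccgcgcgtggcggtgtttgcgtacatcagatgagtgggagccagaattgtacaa
lin-13: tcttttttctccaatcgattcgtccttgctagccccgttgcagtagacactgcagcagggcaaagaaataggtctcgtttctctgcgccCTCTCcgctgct

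At lin-15B the E2F letters TTCGCGC, on the minus strand at X:15725170-15725176, spanned the summit base itself. Within 100 bp of the summit an E2F match was found at lin-15B and at none of lin-36, lin-61 and lin-13. Of all 3369 IDR summit windows of this length 19.9% held one, against 6.91% of windows centred 200 bp upstream of the 19973 genes. CHR letters were found at lin-15B, 72 bp from the summit, and at 3 places at lin-61, with 48.8% of IDR windows and 56.4% of gene windows holding one. GAGAG was found at each of the 4, with 54.1% of IDR windows and 26.9% of gene windows holding it. It occurred at 4 overlapping or adjoining places at lin-15B, 3 at lin-36, 2 at lin-13 and 1 at lin-61. The GC content of the 201 bp was 52.2% at lin-15B, 47.3% at lin-13, 45.3% at lin-36 and 42.8% at lin-61, where the quartiles over IDR windows were 36.8 and 46.8%. These matches are letters in a window and were not tested.

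The genes without an IDR summit had weak or no entries in the relaxed lists. The pooled list had a summit in the window of 4 of these 6, so that 8 of the 10 genes had one, against 44% of all genes. In replicate 2 the window of 8 of the 10 held a summit (44% of all genes), and in replicate 1 that of 5 of 10 (43.9% of all genes). Of the 6 genes, 4 had an entry in replicate 2 and 1 in replicate 1, and none had one in both. A relaxed entry of any strength is therefore common in the genome. The 6 genes are by definition those without an IDR summit, so the lack of entries in both replicates is partly built in. The shares of 44% and 43.9% are over all genes, called ones included. No share over uncalled genes is given here to set beside the counts for these 6.

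**Figure D3:**
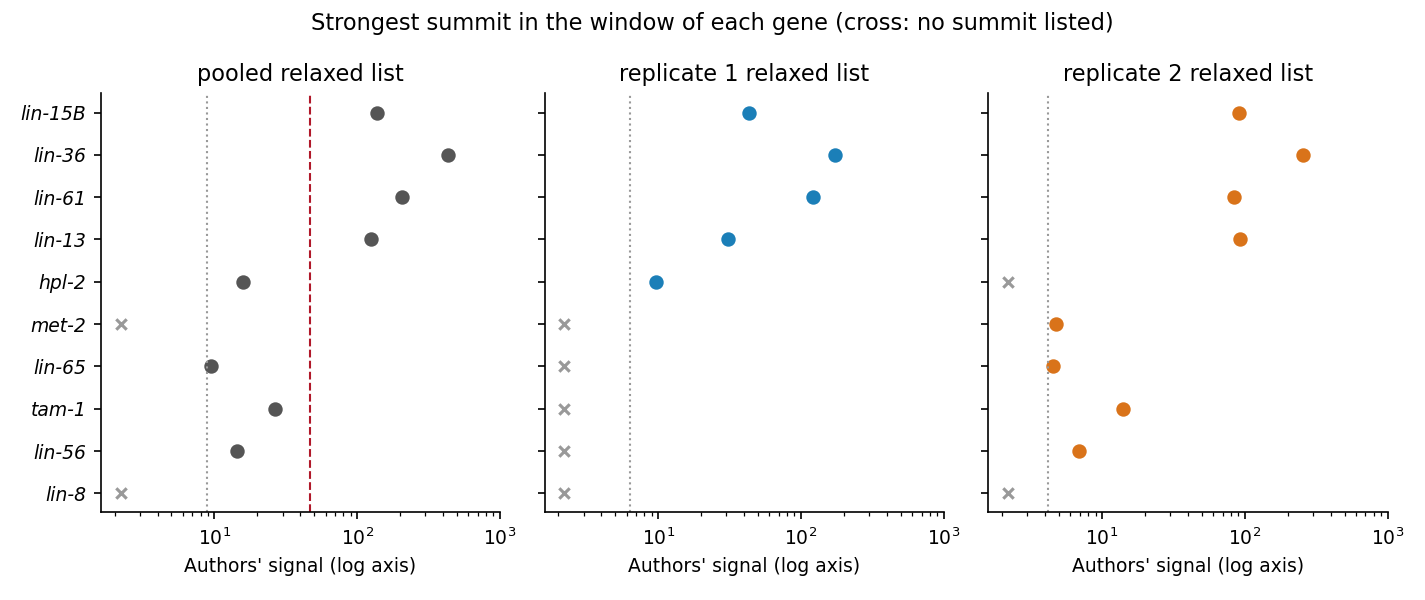
The authors' signal, on a log axis, of the strongest summit in the window of each of the 10 genes in the pooled list and in each replicate, with a cross where no summit is listed, a dotted line at the lowest signal of the list and a dashed line at the lowest IDR signal of 46.4. The 4 called genes stand between 125 and 436 in the pooled list and the others at or below 26.7.

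The RING finger gene tam-1 (WBGene00006523, V:4958603-4963102, minus strand) came closest, of the 6 and within the window, to the IDR minimum of 46.4. Its pooled summit, 84 bp upstream of the start, had a signal of 26.7, rank 6090 of 30000 and a -log10 q of 2.59. Replicate 2 listed it at 13.9 with a summit 1 bp away and a -log10 q of 3.63. Replicate 1 had nothing nearer than 1247 bp, so the summit was seen in a single library. The nearest IDR summit lay 86.5 kb from the start of tam-1, farther than at 95.6% of protein-coding genes, for which the median was 10.3 kb. The stretch V:4963136-4963236 (minus strand) at this summit is shown, marked as before, because it holds GAGAG on the complementary strand at the summit base.
tam-1: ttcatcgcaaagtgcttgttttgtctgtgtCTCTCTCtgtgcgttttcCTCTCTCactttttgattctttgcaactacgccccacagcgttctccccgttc

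The H3K9 methylation genes met-2 and lin-65 had entries near the bottom of the lists. The methyltransferase gene met-2 (WBGene00019883, III:8375300-8380848, plus strand) had a single entry, of 4.76 in replicate 2, inside coding sequence of the neighbouring gene lmbr-1, where the lowest signal of that list was 4.19. Its nearest pooled summit lay outside the window, 1326 bp upstream, with 13.8. The MET-2 partner gene lin-65 (WBGene00022149, I:1755329-1766400, plus strand) had a pooled entry of 9.45, against a list minimum of 8.83, and one of 4.52 in replicate 2. Replicate 1 had no summit nearer than 3639 bp to the pooled one.

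The class A gene lin-56 (WBGene00003038, II:10450007-10452005, plus strand) had a pooled summit of 14.3 located 134 bp upstream, in an exon of ZK673.2, whose end overlaps lin-56. The nearest replicate 2 summit, of 6.86, lay 146 bp away, and the nearest in replicate 1, of 25.3, lay 566 bp away and inside lin-56. No summit there was placed alike by the replicates.

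The class A gene lin-8 (WBGene00002997, II:3056822-3060207, plus strand) had no summit in its window in any list, and the edge of the window matters for it. A pooled summit lay just outside, 1073 bp upstream, with a signal of 33.2, rank 4727 and a -log10 q of 3.50. It was listed in replicate 1 at 15.9 and in replicate 2 at 14.1, with summits 3 and 38 bp from the pooled one. Both replicates thus had it, at a level below the IDR minimum. On the inner side of the same edge stood lin-15B at 950 bp and a pooled summit of hpl-2 at 997 bp.

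The HP1 gene hpl-2 (WBGene00001996, III:10752195-10755530, minus strand) had pooled entries of 15.7 at 997 bp and 10.2 at 463 bp upstream, both in introns of the neighbouring gene rnf-113. The first lay 21 bp from a replicate 1 summit of 17.2 that fell outside the window, the second 34 bp from a replicate 1 summit of 9.65, and replicate 2 had none nearer than 952 bp. Just beyond the other edge, 280 bp downstream of the nearest start and in an intron, a pooled summit had 24.0, with 19.7 in replicate 1 56 bp away and none in replicate 2 nearer than 624 bp.

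Worm genes often lie in runs on the same strand, some of which are operons transcribed from a shared promoter, so an annotated start can lie far from where transcription begins. The annotation used here does not mark operons, so a run was counted where each same-strand protein-coding gene lay less than 1000 bp from the one before it, a rule chosen after the values were seen. Runs were traced only from a gene back to the genes before it. On this rule hpl-2 comes after rnf-113, 93 bp away, and K01G5.10, which adjoins rnf-113, a run of 3 genes. The window of K01G5.10 held one of the strongest peaks of the series, III:10759016-10759461, with a signal of 3495 and rank 4 of 3369. Its signal was 1524 in replicate 1 and 1951 in replicate 2, and it ranked 4 in each. The summit, at III:10759247, lay 725 bp upstream of K01G5.10 and 60 bp upstream of tasp-1, the divergent gene for a threonine aspartase, and 3717 bp from the start of hpl-2. It was nearest to tasp-1, so it need not belong to the hpl-2 run.

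The stretch III:10759197-10759297 at that summit is shown along the minus strand, the strand of hpl-2, because it holds the E2F letters TTGGCGC, 29 bp from the summit. Of all IDR windows of 101 bp, 15.1% held an E2F match. The 201 bp around this summit also held CHR letters at 1 place and GAGAG at 2.
Peak before the hpl-2 run: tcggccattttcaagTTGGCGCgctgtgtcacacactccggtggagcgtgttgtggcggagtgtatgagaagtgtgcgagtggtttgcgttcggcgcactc

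The others of the 10 with such a gene before them were lin-65, met-2 and lin-56, and lin-15B itself stands before lin-15A. The gene before lin-65, Y71G12B.10, lies 918 bp away and had an IDR summit 320 bp upstream. This summit was shared with the divergent gene mppa-1, which codes for a subunit of the mitochondrial processing peptidase. It lay nearer to mppa-1, 106 bp upstream of its start. That summit had a signal of 84.9, with 67.3 at rank 1201 in replicate 1 and 16.4 at rank 5334 in replicate 2, so it ranked far higher in replicate 1. The genes before met-2 and lin-56, namely lmbr-1 and ZK673.2, had no IDR summit in their windows. No such gene came before tam-1 and lin-8. With the window of the first gene of the run counted as well, 6 of 10 genes were called against 22.9% of all genes. With genes less than 500 bp apart it was 5 of 10 against 21.9%. The genes added, hpl-2 and lin-65, rest on summits nearer to a divergent gene, under a rule chosen after the values were seen. Whether these genes are transcribed from the upstream promoters was not tested.

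Genes of the synMuv classes and of related groups were counted by the same window. They stood in lists named for known roles that were drawn up with earlier results of these data known. Over 38 distinct genes, the 10 included, 22 were called (57.9%), against 16.4% of all genes. With each summit given to its nearest protein-coding start only, 16 were called, against 11.7% of all genes. That setting lost trr-1, ssl-1, lin-52, lin-54, hda-1 and lin-61. All 4 genes of class C, which code for the TRRAP and Tip60 histone acetyltransferase complex, were called. The acetyltransferase gene mys-1 had 630, the TRRAP gene trr-1 had 379, epc-1 had 212 and the remodeller gene ssl-1 had 70.3. The summits of trr-1 and epc-1 also lay in the windows of C47D12.2 and Y111B2A.12, in that order. Among the SUMO genes, smo-1, which codes for SUMO, had 475 and the conjugating enzyme gene ubc-9 had 203, and the ligase gene gei-17 stayed at 24.5 in the pooled list. Of the NuRD and MEC genes, mep-1 had 139 and the deacetylase gene hda-1 had 102, at 971 bp upstream and in the window of ril-1 too, and the Mi-2 gene let-418 reached 33.6 in the pooled list.

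The class A list of 4 genes, lin-56 and lin-8 included, had 1 called gene (25%), a count near the 16.4% of all genes. This was lin-38, at 157, whose summit also lay in the window of mrpl-37. The DRM complex had 6 of 8 genes called (75%, against 16.4% of all genes), with a median signal of 1000 and values from 52.2 at lin-52 to 1946 at efl-1. The summits of efl-1, lin-35, lin-52, lin-53 and lin-54 also lay in the windows of fbxa-90, vps-51, ZK632.9, nra-2 and rpl-12, in that order. The DRM genes not called were lin-37, with 12.4 in the pooled list, and dpl-1 itself, with no entry. The highest value of the 10 genes, 436 at lin-36, was below those of efl-1, lin-54, lin-9, lin-53 and lin-35, the lowest of which was 581, and above that of lin-52. The difference between the lists was not tested.

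Of 5 genes of H3K9 methylation and its readers outside the 10, 1 was called, a share near the 16.4% of all genes. This was arle-14, which codes for a further MET-2 partner, with a signal of 51.6 and its summit in the window of abi-1 too. In the pooled list the chromodomain gene cec-4 had 32.7 and the methyltransferase gene set-25 had 19.5, and set-32 and the second HP1 gene hpl-1 had no entry. Of the 6 genes with THAP domains, lin-36 and lin-15B included, 4 were called (66.7%, against 16.4% of all genes). The others called were gon-14 with 70.7 and him-17 with 62.6. The remaining THAP genes were lin-15A, with no entry, and ctbp-1, with 11.5 in the pooled list.

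**Figure D4:**
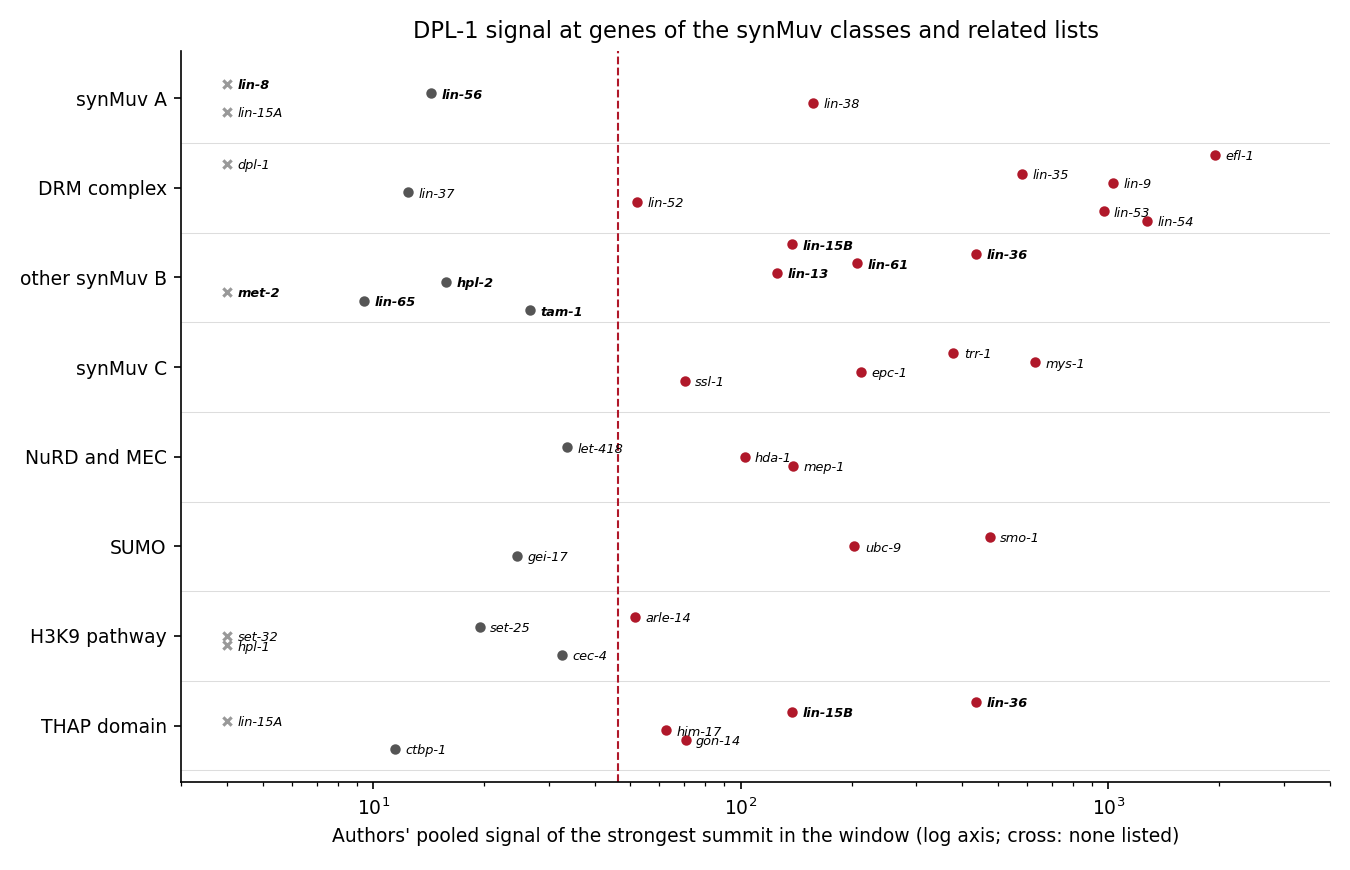
The authors' pooled signal, on a log axis, of the strongest summit in the window of each gene of 8 lists, with the 10 genes in bold, called genes in red, relaxed entries in grey, crosses for genes with no entry and a dashed line at the lowest IDR signal of 46.4. All class C genes lie to the right of the line, and of the H3K9 pathway list only arle-14 does.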

How the data were processed

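Each peak list is in narrowPeak format, and per the deposited file listings each replicate alignment gave a list relative to a control alignment, both together gave the pooled list, and the IDR list was derived from those 3. The peak caller and aligner were not given in the sources used here, nor were read counts, so depth is unknown. The authors' signal per peak, the authors' -log10 q (equal, at 3.95, for all IDR peaks) and the deposited summit offset, which gave the 1-based summit, were used. The lists on ce10 were not analysed here.

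Summits on ce11 were matched to the Ensembl release 115 annotation of WBcel235, the same assembly, with Python 3.11.15, NumPy 2.4.6 and SciPy 1.17.1. All transcript starts of a gene were used. Replicate summits matched within 100 bp. Assignment and motif search were tested on simulated data. The genes and lists were chosen with earlier results of these data known. All 10 genes are named, with every gene sharing an IDR summit with them, and the genes of the other lists. The closing section gives alternatives for window, start, threshold, overlap, motif length and replicate. No comparison was tested, since there is 1 group.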

Additional observations from a re-analysis of the deposited data

How the results depend on the processing

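The 4 called genes of 10 were the same 4 when the window reached 2000 bp upstream, with the outermost start only, with any base of the peak, with signals at or above the IDR median, and among the 3369 strongest peaks of either replicate alone (4 without replicate 1 and 4 without replicate 2). With the nearest protein-coding start only there were 3 (11.7% of all genes). The count was 2 with 500 bp upstream (13.5% of all genes), 0 with 200 bp upstream and 100 bp downstream (7.61%) and 8 with the pooled relaxed list (44%). Of the 38 genes of the wider lists, 22 were called (16.4% of all genes), 21 without replicate 1 (16.1%) and 22 without replicate 2 (15.8%). There were 16 with 500 bp upstream (13.5%), 16 with the nearest protein-coding start only (11.7%) and 6 in the narrowest window (7.61%). The 2 called genes that share a summit, lin-36 and lin-61, became 0 in that window. CHR letters were in 2 of the 4 summit windows (48.8% of IDR windows). They were in 1 with 50 bp either side (27.2%) and in 3 with 150 bp either side (63.6%). All 4 summits had a match in both replicates within 50, 100 and 200 bp. By a single replicate the rank ranged from 1008 to 1838 for lin-15B, 992 to 2648 for lin-13, 314 to 507 for lin-36 and 695 to 1100 for lin-61. The cause of these shifts was not tested, except that narrower windows hold fewer summits by construction. Each relaxed list stops at 30000 peaks, so a weaker summit could not be seen.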

Other observations

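For some genes of the wider lists the strongest summit in the window ranked far apart in the replicates. They were picked for this gap, and no share over all genes is given here. At let-418, the gene for the Mi-2 remodeller, this summit was 188 bp upstream with 36.1 at rank 2218 in replicate 1. In replicate 2 it was a different summit, 555 bp upstream with 11.9 at rank 7796. At cec-4, the gene for a chromodomain protein that anchors methylated chromatin to the nuclear periphery, the values were 26.2 at rank 3172 and 7.30 at rank 15371, at places 155 and 141 bp upstream. At him-17 the summit ranked higher in replicate 2, with 53.3 at rank 1737 against 15.4 at rank 7554. The DRM gene lin-52 was called at a summit 960 bp upstream with 48.0 in replicate 1 and 8.31 within 100 bp in replicate 2.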
